A study of Bos taurus with 15 samples.

Results

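Cells that carried transcripts of NCR1 without transcripts of the T cell receptor subunit CD3E were examined in cattle. They were chosen from the counts themselves: a barcode, the droplet label that stands for a cell, was kept when it held 500 to 4000 genes, fewer than 50000 unique molecular identifiers (UMIs, one per captured transcript), at least 1 UMI of NCR1 and 0 UMIs of CD3E. In all, 307 of the 132361 barcodes inside the gene and UMI limits met this rule, of which 130 came from newborn (NB) liver, 145 from NB intestine and 17 from adult (AD) intestine. The other 15 came from the NB salivary gland and the NB stomach.

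NCR1 encodes NKp46, an activating receptor of natural killer (NK) cells, which are innate lymphocytes that kill stressed or infected cells with perforin and granzymes and release interferon gamma. NKp46 is also carried by a subset of group 3 innate lymphoid cells (ILC3), which reside in mucosal tissue, carry the receptors IL7R and KIT, and answer interleukin 23 and interleukin 1 with interleukin 22. NK cells and ILC3 both lack the T cell receptor complex, and EOMES and perforin stand on the NK side. For this reason NCR1 without CD3E does not by itself separate these cells, and the genes of both were read below.

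The study made single-cell RNA sequencing libraries from tissues of NB and AD cattle, and 15 libraries were analysed. From NB cattle these were liver, salivary gland, the 6 intestinal segments from duodenum to rectum, and the reticulum, omasum and abomasum of the stomach, and from AD cattle they were duodenum, jejunum, cecum and colon. The NB tissues came from 3 calves of similar weight, and all 4 AD libraries came from 1 lactating Holstein cow. Neither the sample labels nor the text of the paper stated which calf gave which library, and its supplementary animal information was not read. NB liver was digested with collagenase I, papain and DNase I, NB intestine with EDTA and trypsin before a lamina propria kit, AD duodenum and cecum with a lamina propria kit, and AD jejunum and colon with a multi-tissue kit. Stage, animal and dissociation changed together and cannot be told apart, and the same holds for tissue and dissociation between liver and intestine. With a single library for every tissue and stage, and all AD libraries from 1 cow, no p-value was computed. The intervals below are exact 95% intervals (Clopper-Pearson for shares, Poisson for UMIs) that cover counting error only.

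The libraries held 17707625 to 129458578 UMIs in total. Of all barcodes, 2174 were listed in at least 2 libraries, at most 46 in any pair of libraries, and no barcode was shared among the selected cells of different libraries. Selected cells held a median of 4892.5 UMIs in NB liver, 6986 in NB intestine and 4444 in AD intestine, so shares of cells with a gene are also given after each barcode was thinned at random to 1500 UMIs.

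The share of NCR1+ CD3E- barcodes was highest in NB liver, at 1.02% (130 of 12734, interval 0.854% to 1.21%). NB colon held 0.979% (47 of 4803, 0.720% to 1.30%) and NB cecum 0.860% (55 of 6395, 0.649% to 1.12%), and the intervals of these 3 libraries overlapped. NB rectum followed with 0.275% (21 of 7628, 0.170% to 0.421%) and NB ileum with 0.185% (14 of 7566, 0.101% to 0.310%). NB duodenum and NB jejunum held 4 cells each, 0.0471% and 0.0305% of their barcodes. Cecum, colon and rectum of the newborns thus lay above the duodenum and jejunum without overlap of intervals, which no longer held for the rectum after thinning (below), and the mean over the 6 NB intestinal libraries was 0.396% ± 0.417 (SD, n = 6 libraries).

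In AD intestine the share was 0.0867% in duodenum (9 of 10380) and lower in jejunum with 3 of 11082, cecum with 2 of 9651 and colon with 3 of 9345 barcodes. The mean over the 4 AD libraries was 0.0417% ± 0.0304 (SD, n = 4 libraries of 1 cow). Cecum and colon, which were sampled at both stages, were far apart between NB and AD and less so among CD3E- barcodes alone, of which the selected cells were 0.985% against 0.141% in cecum and 1.19% against 0.241% in colon, with 1.70% in NB liver. By contrast, duodenum and jejunum had 9 or fewer cells at either stage. Among CD3E- barcodes their order was the other way, with 0.0478% in NB against 0.302% in AD duodenum and 0.0312% against 0.0442% in jejunum. The NB salivary gland held 0.334% (9 of 2698, 0.153% to 0.632%) and the abomasum 6 of 10004. Reticulum (0 of 7512, which allows a share of up to 0.0399%) and omasum (0 of 10974, up to 0.0273%) held none.

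**Figure D1:**
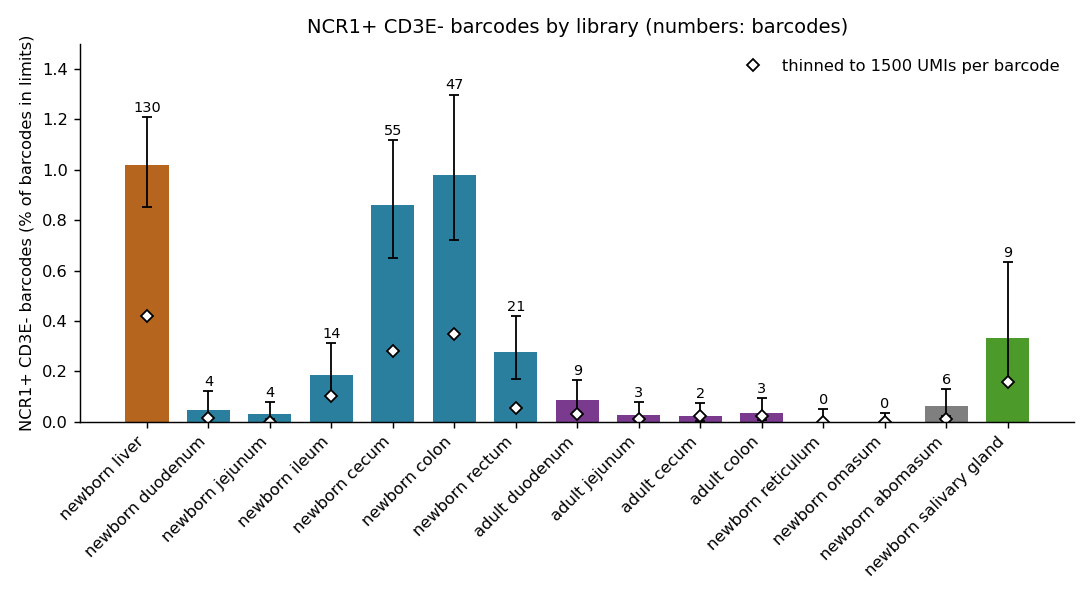
Share of NCR1+ CD3E- barcodes among barcodes inside the gene and UMI limits (percent, y axis) in each of the 15 libraries (x axis), with exact binomial 95% intervals and the number of barcodes above each bar; diamonds give the share after thinning to 1500 UMIs. NB liver, NB colon and NB cecum stand at 1.02%, 0.979% and 0.860%, and the 4 AD libraries at 0.0867% or less.

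Detection of NCR1 was shallow, which bears on these shares. Of the selected cells, 122 of 130 in NB liver, 114 of 145 in NB intestine and 14 of 17 in AD intestine carried exactly 1 UMI of NCR1, and the most UMIs in 1 cell were 2, 4 and 3. After thinning, the share was 0.417% in NB liver (51 barcodes), 0.282% in NB cecum (17), 0.348% in NB colon (15), 0.0556% in NB rectum (4) and 0.102% in NB ileum (7), numbers too small to order the first 3 libraries. The thinned rectum (interval 0.0151% to 0.142%) overlapped the duodenum (up to 0.0698%) and the ileum (0.0410% to 0.210%). Cells that should lack NCR1 gave the background: 0.0334% of epithelial barcodes (3 of 8970), 0.0130% of fibroblast barcodes (1 of 7718) and 0.0867% of CSF1R+ macrophage barcodes (6 of 6918) in NB intestine. In NB liver 0.334% of CSF1R+ barcodes (15 of 4497) and 3.42% of CD79A+ CD3E- B cell barcodes (20 of 585) carried NCR1, in NB intestine 0.496% of B cell barcodes (29 of 5849), and in AD intestine 0 of 858 epithelial barcodes, which allows up to 0.350%. Most of the NB intestinal B cell barcodes with NCR1 came from colon (15 of 1200) and cecum (11 of 326), whereas the ileum, at 0.185% above, had 1 of 4192 and none among its epithelial, fibroblast, endothelial and macrophage barcodes. In NB liver, cecum, colon and rectum (2 of 87) the part of B cell barcodes with NCR1 was larger than the selected share of all barcodes. The shares in NB duodenum and NB jejunum lay at or near these values summed over NB intestine, which came mostly from other segments. Within NB duodenum itself, NCR1 was found in 0 of 4014 epithelial, 0 of 667 fibroblast, 0 of 2041 endothelial and 0 of 868 CSF1R+ barcodes. Within NB jejunum it was found in 0 of 1494 epithelial, 1 of 2985 fibroblast, 0 of 3628 endothelial and 1 of 3193 CSF1R+ barcodes. The part of background in their 4 selected cells each was not tested. In AD intestine 0.0217% of CSF1R+ barcodes (1 of 4605) and 0.0899% of B cell barcodes (2 of 2224) carried NCR1, both counted without CD3E. Over CD3E- barcodes the selected cells were 0.302% in AD duodenum, 0.0442% in jejunum, 0.141% in cecum and 0.241% in colon. These AD values rest on 9 or fewer cells per library. In all libraries the shares are of barcodes with a detected UMI and are not read as frequencies of NK cells or ILC3.

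The other condition of the rule, the absence of CD3E, cut the NCR1+ barcodes very differently by stage. CD3E was absent from 130 of 155 NCR1+ barcodes in NB liver (83.9%), from 145 of 159 in NB intestine (91.2%) and from 17 of 157 in AD intestine (10.8%). The cecum weighed most in the AD value, with 2 NCR1+ barcodes without CD3E and 91 with it. These numbers were 9 and 21 in AD duodenum, 3 and 8 in jejunum, and 3 and 20 in colon. In AD intestine NCR1 thus lay mostly in CD3E+ barcodes, which carried it in 1.10% in the cecum. That share was 0.284% in AD duodenum, 0.186% in AD jejunum and 0.247% in AD colon. Among the NB libraries with at least 20 selected cells it was 0.371% to 0.493%. Just outside the rule, 7 barcodes of NB liver, 1 of NB intestine and 4 of AD intestine carried NCR1 with exactly 1 UMI of CD3E, and 18, 13 and 136 carried 2 or more. CD3E+ barcodes were 39.9% of barcodes in NB liver, 1.27% to 17.7% in the NB intestinal libraries and 38.7% to 86.7% in the AD libraries, so the pool from which a missed CD3E could come also differed.

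The CD3D and CD3G subunits of the T cell receptor complex, which the rule did not use, were then checked. A UMI of CD3D or CD3G was present in 1 of 130 cells of NB liver, 0 of 145 of NB intestine and 3 of 17 of AD intestine. Among CD3E+ NCR1- barcodes of the same libraries it was present in 46.3% (2342 of 5057), 59.7% (2107 of 3530) and 87.7% (24456 of 27885). CD3D and CD3G were therefore almost absent from the selected NB cells, whereas the 3 AD cells carried 4 UMIs of CD3D between them. CD247, the zeta chain that NK receptors share with the T cell receptor, was found in 45 of 130 liver cells, 49 of 145 NB intestinal cells and 11 of 17 AD cells. The co-receptor CD4 was found in 0 of 130 liver cells and 1 of 145 NB intestinal cells, and CD8A in 9.2% and 6.9%.

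EOMES and PRF1 were detected in a larger share of liver cells than of NB intestinal cells, and KIT in a smaller one. EOMES, the transcription factor of NK cells, was detected in 60 of 130 liver cells (46.2%, interval 37.4% to 55.1%), in 12 of 145 NB intestinal cells (8.28%, 4.3% to 14.0%) and in 2 of 17 AD cells. PRF1, which encodes perforin, was detected in 73 liver cells (56.2%, 47.2% to 64.8%), 34 NB intestinal cells (23.4%, 16.8% to 31.2%) and 5 AD cells. TBX21, another NK transcription factor, was sparse, in 20 liver, 14 NB intestinal and 3 AD cells. KIT, the receptor of stem cell factor and a marker of ILC3, showed the opposite order with 32 liver cells (24.6%, 17.5% to 32.9%), 88 NB intestinal cells (60.7%, 52.2% to 68.7%) and 12 of 17 AD cells (70.6%, 44.0% to 89.7%). The name natural killer cell therefore did not hold for the NB and AD intestinal cells as a whole, and they are called NCR1+ CD3E- cells here.

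Thinning lowered the detection of these genes and kept their order. After thinning to 1500 UMIs, EOMES was found in 17.3% of liver and 3.5% of NB intestinal cells, PRF1 in 18.9% and 9.2%, and KIT in 7.1% and 22.5%. CD3E+ NCR1- barcodes of the same libraries, thinned in the same way, carried EOMES in 1.6% in liver and 0.79% in NB intestine, and KIT in 4.7% and 8.4%.

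Several surface receptors and adaptors were detected at similar shares in the tissues, and others were not. KLRK1, the receptor NKG2D, was detected in 59.2% of NB liver cells, 62.1% of NB intestinal cells and 58.8% of AD cells. KLRB1, a C-type lectin receptor of NK cells and innate lymphoid cells, was found in 73 of 130, 87 of 145 and 10 of 17 cells, against 3.1%, 3.1% and 1.0% of CD3E+ NCR1- barcodes. The signalling adaptor FCER1G was present in 93.1%, 80.7% and 70.6%. KLRD1, the receptor CD94, was found in 20.8% of liver cells and 22.8% of NB intestinal cells, with 40.4% in colon and 7.3% in cecum, while KLRF1 was found in 25.4% and 6.9%, CD7 in 35.4% and 13.8% and the adaptor HCST in 69.2% and 52.4%. Transcripts of the granzymes were sparse, with GZMA in 6.2% of liver and 4.8% of NB intestinal cells and GZMB in 0.8% and 4.1%.

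Among the effector and adaptor genes of cytotoxic cells, some were more often detected in liver and others were not. SH2D1A, the adaptor SAP, was found in 100 of 130 liver cells (76.9%) and 43 of 145 NB intestinal cells (29.7%). CTSW, a cathepsin of cytotoxic lymphocytes, was found in 126 (96.9%) and 88 (60.7%) cells, and in 92.1% and 50.7% after thinning. NKG7, a granule protein, was present in 83.1% and 57.9%, and the chemokine CCL5 in 77.7% and 51.7%. The effector FASLG was found in 24 of 130 liver and 42 of 145 NB intestinal cells, LAMP1 in 67 and 99, and the adaptors LAT in 14 and 31 and SH2D1B in 10 and 27, but NB intestinal cells were deeper. After thinning FASLG and LAMP1 kept their order, with FASLG in 7.1% and 10.6% and LAMP1 in 20.5% and 24.6%. LAT and SH2D1B were then found in 7 or fewer cells of either tissue. In AD intestine CTSW was found in 5 of 17 cells and SH2D1A in 2 of 17.

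Other ILC3 genes ran the same way as KIT. IL7R, the receptor of interleukin 7, was found in 26 of 130 liver cells (20.0%), 99 of 145 NB intestinal cells (68.3%) and 12 of 17 AD cells, and in 48.8%, 32.2% and 45.1% of CD3E+ NCR1- barcodes. IL1R1 was found in 7.7%, 33.8% and 52.9% of the selected cells, and IL23R in 2.3%, 17.2% and 23.5%. IL22 itself was detected in 0 liver cells, 5 NB intestinal cells and 3 AD cells. Thinning left IL7R at 10.2% in liver and 43.0% in NB intestine.

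**Figure D2:**
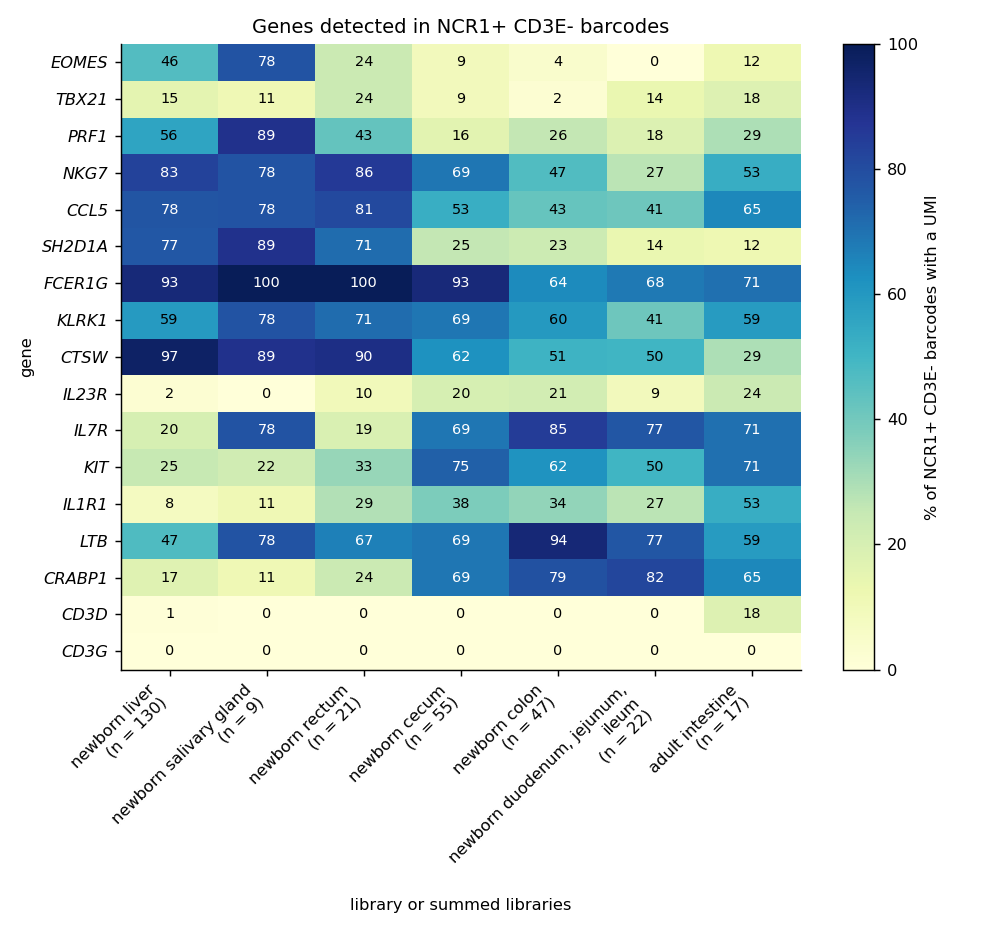
Percent of NCR1+ CD3E- barcodes with at least 1 UMI of a gene (rows) in NB liver, NB salivary gland, NB rectum, NB cecum, NB colon, the summed NB duodenum, jejunum and ileum, and the summed AD intestine (columns, with the number of barcodes). EOMES is found in 46.2% of liver and 23.8% of rectal barcodes, and KIT in 24.6% of liver, 33.3% of rectal, 74.5% of cecal and 61.7% of colonic barcodes.

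Within NB intestine the rectum differed from the cecum and colon in several of these genes. EOMES was found in 5 of 21 rectal cells (23.8%, 8.2% to 47.2%), an interval that includes the share of 5 of 55 in cecum, and in 2 of 47 in colon. KIT was found in 7 of 21 rectal cells (33.3%, 14.6% to 57.0%), 41 of 55 cecal cells (74.5%) and 29 of 47 colonic cells (61.7%). SH2D1A was found in 15 of 21 rectal cells (71.4%), near the 76.9% of liver, and in 25.5% and 23.4% of cecal and colonic cells. IL7R was found in 4 of 21 rectal cells, 38 of 55 cecal cells and 40 of 47 colonic cells. The 22 cells of duodenum, jejunum and ileum together held IL7R in 17, KIT in 11 and EOMES in none. Of the 21 rectal cells 4 (19.0%) were marked as doublets, droplets that hold more than 1 cell, against 6.10% of all rectal barcodes. Marked cells of NB intestine carried EOMES in 3 of 10 and SH2D1A in 5 of 10, against 9 and 38 of the 135 others. Among liver, cecum, colon and rectum, the rectal cells also held the most fibroblast (799 CPM, UMIs scaled to a common total) and endothelial (259 CPM) transcripts, and the part of these in the rectal values was not tested.

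The 9 cells of the NB salivary gland, the parotid, lay on the side of liver, with EOMES in 7, PRF1 in 8 and IL23R in 0 of 9. They carried IL7R in 7 of 9, unlike the liver cells. CD79A, a subunit of the B cell receptor, was found in 7 of these 9 cells, against 15.4% in liver and 20.0% in NB intestine, and its part in the salivary values was not tested.

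To see whether the 2 programmes shared cells, each cell was assigned to the NK side when it carried any UMI of EOMES, TBX21 or PRF1 and to the ILC3 side when it carried any of IL23R, IL1R1 or IL22, a rule chosen after values of these data were seen. In NB liver 90 cells were on the NK side only (69.2%), 4 on the ILC3 side only, 9 on both and 27 on neither. In NB intestine 42 were on the NK side only, 50 on the ILC3 side only, 8 on both and 45 on neither. By library, cecum had 14 NK side and 21 ILC3 side cells, colon 12 and 19, and rectum 12 and 4. AD intestine had 6 and 9, and salivary gland 8 and 0. TBX21 alone did not set a cell apart from the ILC3 genes: 1 AD colonic cell counted on the NK side by 1 UMI of TBX21 held 12 UMIs of IL7R and 4 of KIT. It had 0 UMIs of EOMES and PRF1. Another AD cell of the NK side, from jejunum, had 1 UMI each of EOMES and PRF1 but 20 of IL7R and 10 of KIT. Of the AD NK side cells, 1 from cecum also held 2 UMIs of CD3D and 1 from colon held 1 UMI. On the AD ILC3 side, 1 duodenal cell held 1 UMI of CD3D. After thinning, 33.9% of liver cells were on the NK side only, and NB intestine held 14.1% NK side and 12.0% ILC3 side cells.

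**Figure D3:**
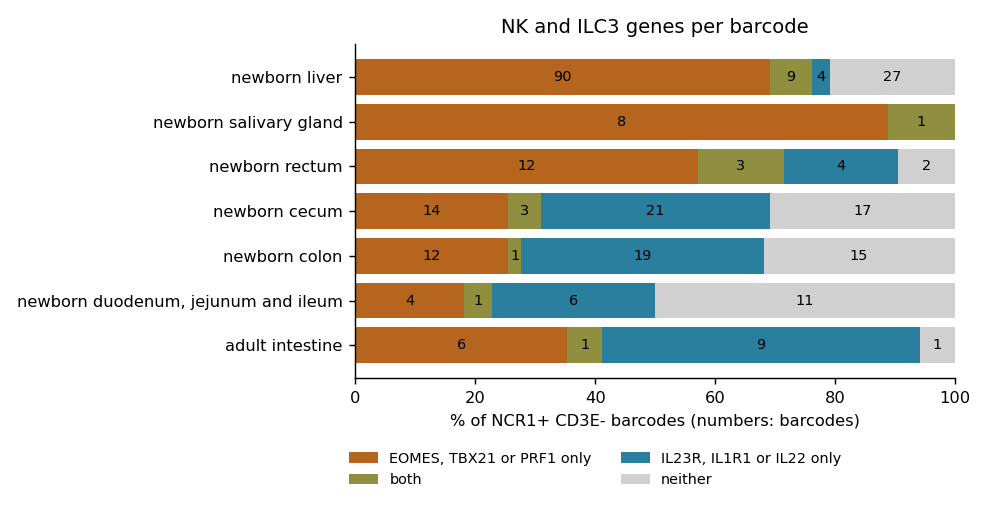
Percent of NCR1+ CD3E- barcodes (x axis) with UMIs of EOMES, TBX21 or PRF1 only, of IL23R, IL1R1 or IL22 only, of both or of neither, by library or summed libraries (y axis), with the number of barcodes in each segment. The first class holds 90 of 130 barcodes in NB liver and 12 of 21 in NB rectum, and the second 21 of 55 in NB cecum and 19 of 47 in NB colon.

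Other genes followed this split inside NB intestine. Both sides held similar depth, with a median of 7584.5 UMIs in 50 ILC3 side cells and 7394 in 42 NK side cells. They were unevenly spread over the libraries: 12 NK side and 4 ILC3 side cells came from rectum, and 0 and 3 from jejunum. The part of the libraries in the values below was not tested. On the ILC3 side IL7R was found in 94.0% against 38.1% on the NK side, KIT in 72.0% against 45.2%, and the lymphotoxin subunit LTB in 96.0% against 64.3%. IL17F, an interleukin 17 family cytokine, was found in 28.0% against 0. CRABP1, a cytoplasmic retinoic acid binding protein, was found in 98.0% against 31.0%.

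On the NK side, SH2D1A was found in 69.0% against 4.0%, CTSW in 97.6% against 30.0%, the integrin subunit ITGB2 in 64.3% against 14.0% and the adaptor HCST in 73.8% against 28.0%. NKG7 was found in 88.1% against 38.0% and CCL5 in 73.8% against 32.0%. MKI67, a marker of dividing cells, was found in 23.8% against 2.0%, and the 10 cells of NB intestine marked as doublets held 117 of its UMIs against 54 in the other 135. Some genes did not follow the split: UBD was found in all cells of both sides, HOPX in 90.0% of ILC3 side and 88.1% of NK side cells, and KLRB1 in 62.0% and 66.7%. Cells with more NCR1 UMIs were deeper, and among 114 NB intestinal cells with 1 UMI of NCR1 and 31 cells with 2 or more KIT was found in 60.5% and 61.3%, IL7R in 70.2% and 61.3%, PRF1 in 20.2% and 35.5%, NKG7 in 53.5% and 74.2%, and CCL5 in 46.5% and 71.0%.

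CRABP1 was the gene with the highest ratio of selected cells to all other barcodes of their library, with a median log2 ratio of 4.66 on CPM, UMIs scaled to the same total in every library, plus 10. The rule chose the cells of this ratio, so it is a description. It was detected in 22 of 130 liver cells (16.9%, 10.9% to 24.5%), 98 of 145 NB intestinal cells (67.6%, 59.3% to 75.1%) and 11 of 17 AD cells, and in 0.3%, 1.4% and 0.1% of CD3E+ NCR1- barcodes. In NB intestine it was found in 87 of 99 cells with IL7R and in 11 of 46 without. These numbers were 13 of 26 and 9 of 104 in NB liver, and 10 of 12 and 1 of 5 in AD intestine. KLRB1 (3.88), CCL5 (3.65), the kinase TXK (3.36), TMIGD2 (3.32), KLRK1 (3.18), CTSW (3.15), IDO1 (3.13) and SH2D1A (2.93) were the next genes on this ratio after NCR1 itself.

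Levels were next compared between NB liver and NB intestine on UMIs summed per library, over the 4 libraries with at least 20 selected cells: liver, cecum, colon and rectum. A gene was called when the liver lay at least 2-fold from the mean of the 3 intestinal libraries on CPM + 10 and outside their range. Of 2380 genes tested, 76 were higher (3.19%) and 137 lower (5.76%) in liver, and the median log2 ratio of all tested genes was 0.03. Without the rectum 123 genes were higher. Without marked doublets and with the same 4 libraries, a setting chosen after seeing the data, 58 genes were higher and 168 lower. Only 33 of the 76 higher genes were still called in this setting, against 124 of the 137 lower genes. TMM scaling moved the median of all tested genes to 0.15 and the higher genes from 35.7% to 46.0% of those called. Ratios below are log2 ratios of liver to the intestinal mean on CPM + 10, which understates the change of low genes.

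EOMES was present at 136 CPM in liver, 41.7 in cecum, 12.9 in colon and 74.7 in rectum, and was called higher in liver (log2 ratio 1.46). PRF1 was present at 180 CPM in liver, 29.2 in cecum, 64.6 in colon and 126 in rectum (1.19). In both genes the rectum lay between the liver and the other libraries of the large intestine. In CD3E+ NCR1- barcodes the same ratios were 0.81 and 0.76.

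Of 11 cytokine and chemokine genes tested, IFNG, XCL1 and TNF were higher in liver and 3 were lower. IFNG, interferon gamma, was present at 119 CPM in liver, 8.33 in cecum, 0 in colon and 74.7 in rectum (log2 ratio 1.77), against 0.14 in CD3E+ NCR1- barcodes. XCL1, a chemokine that attracts cross-presenting dendritic cells, was present at 409 CPM in liver, 112 in cecum, 0 in colon and 92.0 in rectum (2.42, against -0.23 in CD3E+ barcodes). TNF was at 174, 72.9, 113 and 51.7 CPM (1.04). SH2D1A was at 450, 81.2, 126 and 402 CPM (1.11), where the rectum came close to liver, and the CD3E+ barcodes stood at -0.75. CD7 (1.55), a surface protein of NK and T cells, was also called higher.

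IL7R was present at 95.9 CPM in liver, 269 in cecum, 1234 in colon and 144 in rectum (log2 ratio -2.40), whereas in CD3E+ NCR1- barcodes the ratio was 1.08. KIT was at 69.4, 285, 220 and 74.7 CPM (-1.36) and IL1R1 at 15.1, 123, 87.2 and 46.0 CPM (-1.92). Liver lay below all 3 intestinal libraries in each of these genes, with the rectum nearest to it. For KIT, liver (69.4 CPM) and rectum (74.7 CPM) were less than 1 UMI of the rectum apart (5.75 CPM), so counting error left their order unsettled. Of 7 genes of the ILC3 list tested, 4 were lower in liver (IL7R, KIT, IL1R1 and TNFRSF25) and none higher, with a median log2 ratio of -1.36. Without cecum 2 were lower.

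LTA, LTB and TNFSF14 were the 3 cytokine genes lower in liver, unlike TNF of the same family. LTA was present at 8.83 CPM in liver, 33.3 in cecum, 191 in colon and 201 in rectum (log2 ratio -3.01). LTB was present at 223, 862, 1505 and 471 CPM (-2.04), against -0.17 in CD3E+ NCR1- barcodes. TNFSF14, the ligand LIGHT, was at 192, 1156, 691 and 471 CPM (-1.96). Unlike EOMES, LTA in the rectum lay with the colon. ID2, which innate lymphoid cells need to develop, was at 477, 1348, 1115 and 805 CPM (-1.17), and RUNX3 at 45.4, 219, 165 and 126 CPM (-1.70). CXCR4 (-1.03), CD69 (-1.15) and RGS1 (-2.04), which mark residency or homing, were lower as well.

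**Figure D4:**
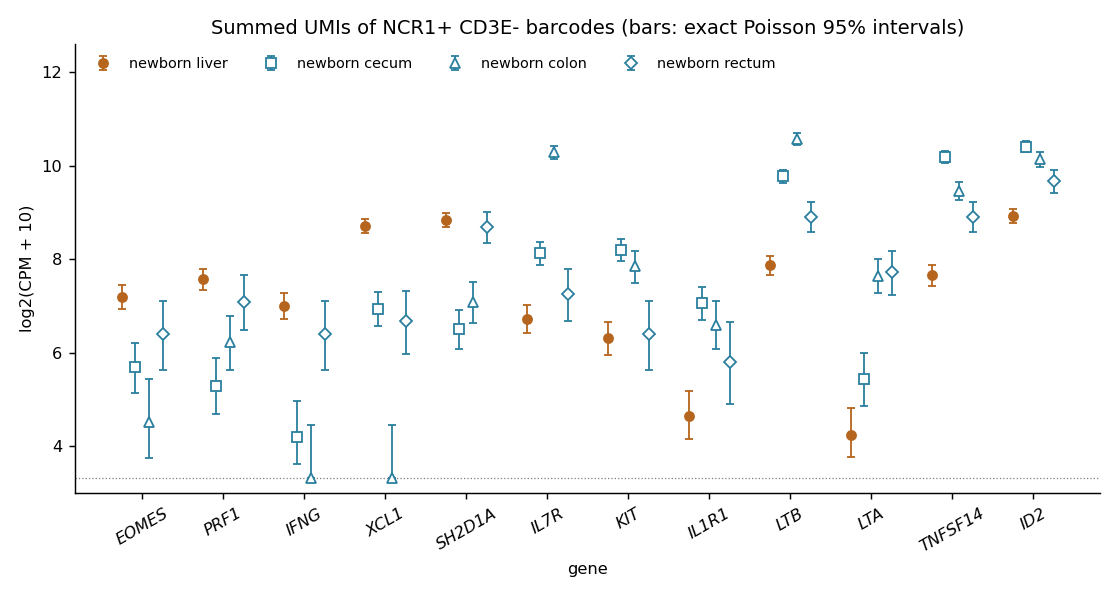
Summed UMIs of NCR1+ CD3E- barcodes as log2(CPM + 10) (y axis) for 12 genes (x axis) in NB liver, cecum, colon and rectum, with exact Poisson 95% intervals; the dotted line marks 0 CPM. EOMES, PRF1, IFNG, XCL1 and SH2D1A are highest in liver and the other 7 genes lowest in liver.

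By list, 1 of 7 NK receptor genes, 2 of 7 adaptor genes (SH2D1A, and TYROBP, which had a ratio of -0.39 without marked doublets), 1 of 8 cytotoxic effector genes and 3 of 11 cytokine and chemokine genes were higher in liver, and 3 of those 11 were lower. Of the 7 NK transcription factors 1 was higher and 3 lower. Of 3 cytokine receptors 1 was lower, and of 6 homing and residency genes none was higher and 3 were lower. Both fibroblast genes tested, COL1A2 and COL3A1, were lower in liver, and the fibroblast markers summed to 1.26 CPM in liver, 406 in cecum, 19.4 in colon and 799 in rectum. Mitochondrial transcripts summed to 31596 CPM in liver, 49629 in cecum, 82049 in colon and 45607 in rectum, and the part of either in the other genes was not tested. None of the 9 proliferation genes was called, and no T cell gene reached the level needed. The NK receptor genes had a median log2 ratio of 0.12. NCR1 itself stood at 174 CPM in liver, 140 in cecum, 174 in colon and 201 in rectum, a level that the rule itself fixes. KLRK1 (0.12), KLRB1 (-0.32), NKG7 (0.16), CCL5 (0.46) and CTSW (0.84) were not called.

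CRABP1 was present at 174 CPM in liver, 3185 in cecum, 2442 in colon and 391 in rectum, and was called lower in liver (log2 ratio -3.45). In CD3E+ NCR1- barcodes it stood at 3.41 CPM in liver and 14.4 in the intestine. TMIGD2 (-1.37) and TNFRSF18 (-1.08) were lower too, and IDO1, at 363, 37.5, 64.6 and 425 CPM, was not called because the rectum lay above liver.

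The genes with the largest gap between liver and the nearest intestinal library included macrophage genes among those higher in liver and heat shock genes among those lower. Higher in liver were MARCO at 264 CPM against 0 in all 3 intestinal libraries, HMOX1 (3.09), S100A9 (2.99), C1QB (3.37), C1QA (3.16), AIF1 (2.97), RNASE6 (2.92), BRB (2.82), ANXA3 (2.34) and XCL1. In CD3E+ NCR1- barcodes the ratios were 5.33 for MARCO, 3.67 for HMOX1, 2.63 for C1QB, 2.81 for C1QA, 3.43 for AIF1, 3.17 for RNASE6, 3.24 for BRB, 1.76 for ANXA3 and 4.54 for S100A9, all positive, whereas that of XCL1 was -0.23. The 3 macrophage genes tested were all higher in liver. The 6 macrophage markers summed to 1560 CPM in the selected liver cells and 3487 CPM in CD3E+ NCR1- liver barcodes, against 45.8 in cecum, 404 in colon and 80.5 in rectum.

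These macrophage transcripts lay in a few barcodes. In liver, 17 of the 130 cells (13.1%) were marked as doublets, against 10.2% of all liver barcodes. The marked cells held 510 of 550 UMIs of C1QA, 203 of 223 of C1QB, 39 of 43 of CSF1R and 167 of 192 of TYROBP, an adaptor shared by NK and myeloid cells. They held only 16 of 108 UMIs of EOMES, 17 of 143 of PRF1 and 11 of 324 of XCL1. Without marked doublets and with the same 4 libraries, C1QA stood at -0.028, BRB at -0.36 and TYROBP at -0.39, while EOMES stood at 1.67, PRF1 at 1.52, IFNG at 1.82, XCL1 at 2.67, IL7R at -2.17 and KIT at -1.24.

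Lower in liver with the largest gap were CXCL2 at 3.78 CPM in liver, 273 in cecum, 194 in colon and 253 in rectum, then NFKBID (-3.06), HSPH1 (-3.56), ZFAND2A (-3.95), DNAJB1 (-2.59), FOSB (-2.86), DNAJA4 (-3.39) and CSRNP1 (-2.83). EBD, enteric beta-defensin of the epithelium, and SPINK1, a secreted trypsin inhibitor, were also among them, with 0 UMIs each in liver. Of 12 immediate early and heat shock genes tested, 8 were lower in liver and none higher (median -1.65). HSPA1A, the inducible HSP70, was present at 2229 CPM in liver, 15965 in cecum, 7185 in colon and 7387 in rectum (-2.19). In CD3E+ NCR1- barcodes HSPA1A stood at -1.43, DNAJB1 at -2.06 and HSPH1 at -2.90, ZFAND2A at -2.62, DNAJA4 at -2.46, NFKBID at -2.61, CSRNP1 at -1.91, EBD at -6.09 and SPINK1 at -5.12, while CXCL2 stood at -1.19 and FOSB at -1.10, farther from their ratios of -4.18 and -2.86 in the selected cells. All of these were thus negative in the T cells of these libraries too, and the part of heat shock and epithelial transcripts in the genes above was not tested.

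**Figure D5:**
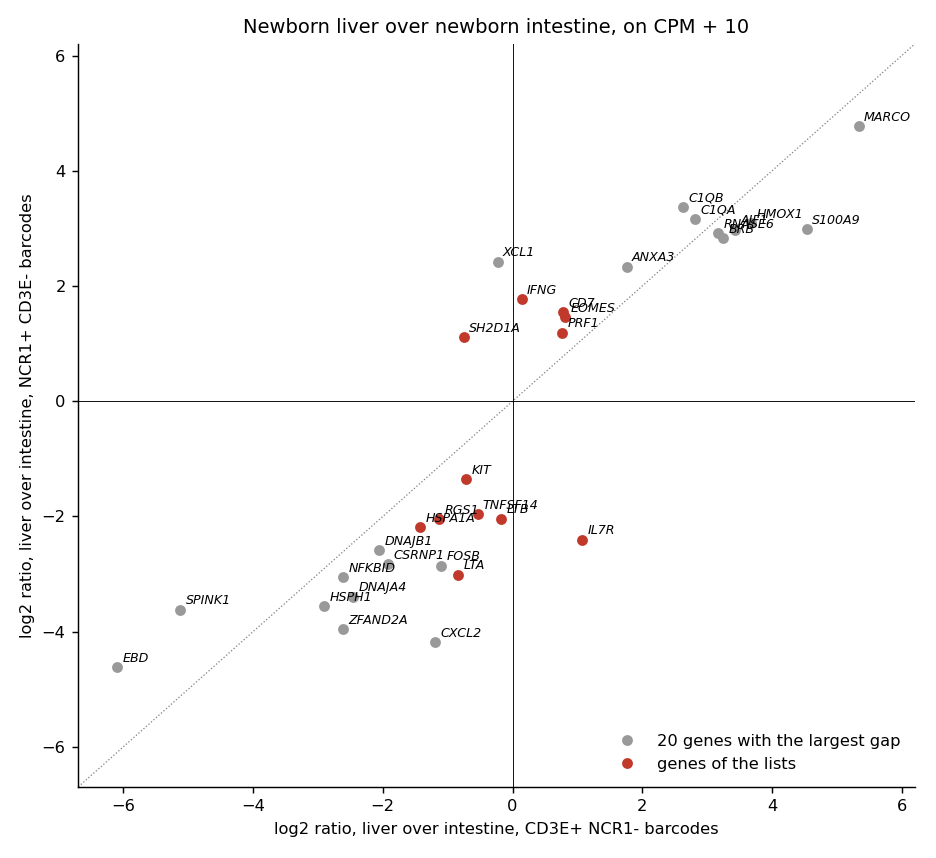
Log2 ratio of NB liver to NB intestine on CPM + 10 in NCR1+ CD3E- barcodes (y axis) and in CD3E+ NCR1- barcodes of the same libraries (x axis) for the 20 genes with the largest gap (grey) and called genes of the lists (red); the dotted line marks equal ratios. MARCO, C1QA, DNAJB1, HSPH1, EOMES and PRF1 lie within 1 log2 unit of the line, whereas IFNG, XCL1, SH2D1A, LTB and IL7R lie farther from it.

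The AD cells were too few for a comparison by library, since none of the 4 AD libraries held 20. Their UMIs were therefore summed, 93117 in all, so that 1 UMI was worth 10.7 CPM. Of the 9 duodenal cells, 8 carried IL1R1 and 8 carried CRABP1. The 3 jejunal cells included 1 with EOMES, PRF1 and IL7R together, and the 2 cecal cells 1 with IL23R and 1 with 2 UMIs of CD3D. Of the 3 colonic cells, 2 carried IL7R and KIT.

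Against the summed NB intestine, 45 of 551 genes tested were higher in AD intestine (8.17%) and 65 lower (11.8%) by 2-fold on CPM + 10. TMM scaling gave 18 and 96, with the median of all genes at -0.37. IL7R stood at 1278 CPM (119 UMIs, interval 1059 to 1529) in AD and 585 in NB intestine (log2 ratio 1.11), and in CD3E+ NCR1- barcodes the ratio was 1.50. KIT was at 462 against 221 CPM (1.03), while in CD3E+ barcodes it stood at -0.77. Of 5 genes of the ILC3 list tested, IL7R, KIT, IL22 and GATA3 were higher in AD intestine and none was lower. This count of 4 fell to 1 without AD colon or without marked doublets, and to 2 with TMM scaling. CRABP1, at 4510 against 2674 CPM (0.75), was not called.

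Several other AD values rested on 1 cell or 1 library. IL22 stood at 827 CPM in AD against 64.6 in NB intestine, and 73 of its 77 UMIs lay in 1 colonic cell, so that without AD colon the ratio was -0.19. TNF (1.72) had 17 of its 30 UMIs in 1 cell and went to -0.34 without the 3 cells of AD colon. GNLY, the granule protein granulysin (2.95), had 23 of 34 UMIs in 1 cell and went to 0.69 without AD jejunum. GATA3 (2.24) had 16 of 39 UMIs in 1 cell and stayed above 2-fold on leaving out any 1 library. Lower in AD intestine were TNFSF14 (-3.16), CXCR4 (-2.38), CD69 (-1.66), HOPX (-1.47), CTSW (-1.09) and, of the heat shock genes, HSPA1A (-1.72).

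Between NB liver and the summed AD cells, 57 of 544 genes tested were higher in liver (10.5%) and 63 lower (11.6%), and TMM scaling gave 120 and 38, with the median of all genes at 0.42. All 5 genes of the ILC3 list tested (IL7R, KIT, IL22, GATA3 and TCF7) were lower in liver, with IL7R at -3.60 and KIT at -2.57. Without AD colon 2 were lower, and 3 with TMM scaling or without marked doublets. CRABP1 stood at -4.62. FCER1G, SH2D1A (2.11), CTSW, XCL1, CCL4, IL2RB and CXCR4 were higher in liver, and LTB, ID2, RUNX3, ETS1, IL2RG and RGS1 were lower. GNLY was also lower (-1.63) but stood at 0.63 without AD jejunum, and LTB (-1.86) stood at -0.70 without AD duodenum and at 0.050 in cells with at least 2 UMIs of NCR1. The NB liver values are the same in this and the earlier comparison.

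The NCR1+ cells that the rule left out in AD intestine had other genes. The 140 AD barcodes with both NCR1 and CD3E carried CD3D in 94.3%, CCL5 in 133 of 140, NKG7 in 87.9%, PRF1 in 58.6%, GNLY in 52.1% and GZMB in 47.1%. CD8A was found in 36.4% and CD8B in 40.0%. EOMES was found in 0.7%, KIT in 14.3%, IL1R1 in 7.1% and CRABP1 in 2.9%, against 70.6%, 52.9% and 64.7% of the 17 AD cells for KIT, IL1R1 and CRABP1. In the adult cow most NCR1+ barcodes thus carried T cell receptor transcripts, but CD3E+ barcodes were also 38.7% to 86.7% of all barcodes in these libraries. NCR1 was found in 0.284% of CD3E+ and 0.302% of CD3E- barcodes of AD duodenum, and in 0.247% and 0.241% in colon. In jejunum these shares were 0.186% and 0.0442%, and in cecum 1.10% and 0.141%. The higher shares of IL1R1 and CRABP1 in the 17 CD3E- cells rested largely on the duodenum, with 8 of its 9 cells for each.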

How the data were processed

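The 15 libraries were made with the Chromium 3' v3 chemistry, and the authors counted UMIs per gene and barcode with Cell Ranger 3.1.0 on ARS-UCD1.2. The deposited values are raw counts with no normalization. The gene and UMI limits of the study were applied, and its limit of 40% mitochondrial UMIs only as an alternative. Doublets were scored in each library by simulated doublets and nearest neighbours. The highest scores were marked at a rate fixed by library size, 0.8% per 1000 barcodes (2.15% to 10.5% of barcodes). Marked barcodes were kept in the main values. UMIs were summed per library and divided by their total (CPM). Genes with a mean of at least 50 CPM (libraries) or 200 CPM (summed sets, a choice made after seeing the data) were called at 2-fold with a pseudocount of 10 CPM. TMM factors came from edgeR 4.0.16 as an alternative. Python 3.11.15, numpy 2.4.6, pandas 2.3.3, scipy 1.17.1 and R 4.3.3 were used, and the comparison was tested on simulated data. Genes were named from fixed lists, as the 10 called genes per direction with the largest gap between NB liver and NB intestine (no AD library was large enough for this), and as the 20 leading genes by ratio to other barcodes. The selected cells and the lists were chosen with earlier results of these data known. Depth was 17707625 to 129458578 UMIs per library. Some listed genes are not reported here. No sequence is shown.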

Additional observations from a re-analysis of the deposited data

How the results depend on the processing

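Each comparison rests on 1 library per tissue and stage, and low UMI counts of NCR1 limit all shares. No paired analysis by replicate number was possible because no replicate numbers link the libraries, and a pairing by tissue of the 4 tissues sampled at both stages was not tested. At least 2 UMIs of NCR1 left 8 liver cells (0.0628% of barcodes), 31 NB intestinal cells and 3 AD cells (0.00725%). EOMES was found in 6 of these 8 liver cells (75.0%, interval 34.9% to 96.8%) and KIT in 1 of 8 (12.5%). PRF1 was found in 11 of 31 NB intestinal cells (35.5%), and KIT and IL7R in all 3 AD cells (100%). This setting left no library with 20 cells for liver against NB intestine. Thinning to 1000 UMIs gave 0.269% in liver, where 1500 gave 0.417%, and 0.0101% in AD intestine. Sides thinned to 1500 UMIs held 33.9% NK side in liver, and 14.1% NK side and 12.0% ILC3 side in NB intestine. Leaving out 1 library gave 60.2% to 76.6% of NB intestinal cells with IL7R, the highest without rectum, and 52.2% to 65.3% with KIT, the lowest without cecum. For liver against NB intestine, genes higher and lower were 128 and 229 with 20 CPM or more and 206 and 353 without a filter, 43 were higher with a pseudocount of 50 CPM, and leaving out 1 library gave 70 to 123 higher (123 without rectum) and 125 to 196 lower, with 2 to 6 ILC3 genes lower (2 without cecum). Without doublets, where rectum fell below 20 cells, C1QA stood at -0.50, BRB at -0.79 and TYROBP at -0.66, and with rectum kept, an alternative chosen after seeing the data, at -0.028, -0.36 and -0.39. For AD against NB intestine, TMM factors gave 18 higher, 20 CPM or more 647 and 469, no filter 1063 and 1243, 50 CPM or more (chosen after seeing the data) 305 and 215, and at least 2 UMIs of NCR1 73 and 104. ILC3 genes higher in AD were 2 with TMM, with at least 2 UMIs of NCR1 or in the 4 tissues of both stages (chosen after seeing the data), 1 without doublets, and 1 to 4 leaving out 1 library (1 without AD colon, 2 without NB rectum). Leaving out 1 library gave -0.19 to 4.86 for IL22 and -0.34 to 2.54 for TNF, both lowest without AD colon. For liver against AD intestine, TMM gave 120 and 38, 20 CPM or more 563 and 866, no filter 1325 and 1430, 50 CPM or more 252 and 419, and at least 2 UMIs of NCR1 86 higher. ILC3 genes lower in liver were 8 with 20 CPM or more, 10 without a filter, 3 with TMM or without doublets, 2 with at least 2 UMIs of NCR1 and 2 to 5 leaving out 1 library (2 without AD colon). GNLY stood at -2.55 to 0.63 leaving out 1 library, the highest without AD jejunum, and LTB at 0.050 with at least 2 UMIs of NCR1. TMM moved the median of all genes to 0.15, -0.37 and 0.42 in the 3 comparisons. Named genes gave 644, 336 and 294 alternative values in the comparisons in this order, of which 6, 2 and 2 changed sign, as given above. A further 52, 48 and 53 kept their sign but moved beyond the spread. The spread was the SD over the intestinal libraries in the first comparison and the Poisson interval of the summed UMIs in the others. The cause of these changes was not tested.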
